A study of Rattus norvegicus with 96 samples.

Results

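The proteasome subunit genes of the rat were followed in 2 brain regions after ethanol drinking. Members were all genes whose annotated symbol is Psma, Psmb, Psmc or Psmd followed by a digit, without the immunoproteasome genes Psmb8, Psmb9 and Psmb10. This gave 33 genes of the 14217 with a probe set of their own on the array: 7 of the alpha ring, 6 of the beta ring, 6 ATPases, 11 non-ATPase subunits of the cap and 3 assembly chaperones. Each gene was read from the probe set with the highest mean over all arrays. Psmb6, the caspase-like subunit, shares its only probe set with Psmb6l1 and was left out, and Psmc3ip has further letters after its digits. No probe set carried Psma8 or Psmb11 alone.

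The series measured tissue of P rats, a line selectively bred for high alcohol intake, on 96 Affymetrix expression arrays. Sets of 48 arrays each cover the amygdala's central nucleus (CeA), an output nucleus with a part in stress and withdrawal, and the accumbens shell (NAc shell), a striatal region of the reward system. Ethanol rats had limited access to ethanol, which the series title calls binge drinking, and water rats had no ethanol. Brains were sampled at 1, 6 or 24 h from the last drinking session. For the CeA, ethanol groups held 11, 10 and 10 arrays at these hours and water groups 6, 5 and 6. For the NAc shell the numbers were 10, 10 and 11 for ethanol and 7, 5 and 5 for water. All groups share the P strain, so no group stands for rats of ordinary alcohol intake. Age, sex, the amount drunk, and whether each array is a separate animal or both regions came from the same rats are not given in the sources used here. The p-values therefore measure the spread between arrays. In dissected tissue, fewer cells of a type and less RNA per cell cannot be told apart.

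The proteasome degrades proteins marked with ubiquitin. Its barrel-shaped core is built from outer rings of alpha subunits, which gate the entrance, and inner rings of beta subunits, some of which cut the protein chain. The regulatory cap holds a ring of ATPases that unfold and thread the substrate, and non-ATPase subunits that bind ubiquitin, remove it and hold the complex together. In neurons the proteasome takes part in the turnover of synaptic proteins, and the factors Nfe2l1 and Nfe2l2 are known to raise the transcription of its subunits through antioxidant response elements (AREs).

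Promoter windows from RefSeq (build GRCr8), which run from 250 bases before to 50 bases after the annotated start, were found for 29 of the 33 genes. Psma7, Psmd6, Psmd12 and Psmd14 were not matched. The ARE core, searched as TGACNNNGC on both strands, was in 6 of these 29 windows (Psma3, Psmb2, Psmb5, Psmd1, Psmd3 and Psmd9), or 20.7%, against 12.1% of 33469 windows of the same length. CCAAT, also on both strands, was in 16 windows (55.2%), against 37.5%, and 1 match of each motif in a member's window overlapped. The windows of the 4 genes with the smallest p for ethanol in the NAc shell are shown, 5′ to 3′ along the gene, with matches to either motif in capitals, because these genes are described in full; they were picked by their ethanol p, and nothing about the motifs follows from them.
Psmd3 (chr10:84139688-84139987, plus strand): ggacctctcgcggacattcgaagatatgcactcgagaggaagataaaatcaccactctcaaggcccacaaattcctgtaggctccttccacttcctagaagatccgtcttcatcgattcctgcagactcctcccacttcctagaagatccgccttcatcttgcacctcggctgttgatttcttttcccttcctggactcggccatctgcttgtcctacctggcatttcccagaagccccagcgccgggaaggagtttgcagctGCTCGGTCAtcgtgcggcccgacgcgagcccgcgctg
Psmb7 (chr3:42827421-42827720, minus strand): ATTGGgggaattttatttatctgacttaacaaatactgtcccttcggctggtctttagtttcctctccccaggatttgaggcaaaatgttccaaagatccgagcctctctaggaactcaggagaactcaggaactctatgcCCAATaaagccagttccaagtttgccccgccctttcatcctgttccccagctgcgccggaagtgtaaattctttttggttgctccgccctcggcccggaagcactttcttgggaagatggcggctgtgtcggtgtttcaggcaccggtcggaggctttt
Psmc4 (chr1:92485011-92485310, minus strand): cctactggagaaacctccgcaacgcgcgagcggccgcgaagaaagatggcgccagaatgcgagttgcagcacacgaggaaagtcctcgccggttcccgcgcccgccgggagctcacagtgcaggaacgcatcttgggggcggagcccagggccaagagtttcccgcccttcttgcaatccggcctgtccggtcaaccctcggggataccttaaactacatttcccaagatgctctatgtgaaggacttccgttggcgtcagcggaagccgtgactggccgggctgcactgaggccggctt
Psmd9 (chr12:39018215-39018514, minus strand): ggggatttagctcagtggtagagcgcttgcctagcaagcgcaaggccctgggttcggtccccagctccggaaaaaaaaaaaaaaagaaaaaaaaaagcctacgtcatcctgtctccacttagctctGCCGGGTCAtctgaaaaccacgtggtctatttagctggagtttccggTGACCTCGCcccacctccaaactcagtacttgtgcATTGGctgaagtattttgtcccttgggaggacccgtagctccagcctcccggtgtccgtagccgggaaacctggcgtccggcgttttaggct
The Psmd3 window held 1 ARE core, which starts 13 bases past the annotated start on the opposite strand. Psmd9 held 2 ARE cores, 124 and 77 bases before the start, and 1 CCAAT. Psmb7 held 2 CCAAT and no ARE core, and the Psmc4 window held neither. Over the 3 hours the NAc shell ethanol difference had a median of 0.05 log2 in the 6 genes with an ARE core and 0.10 in the 23 without.

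Values are on the log2 scale on which they were deposited, so a difference of 1 is a doubling, and levels are not compared between regions, whose arrays differ in scale (lower quartiles of 5.75 to 5.88 in CeA arrays and 6.01 to 6.16 in NAc shell arrays). Over CeA arrays the 33 genes had means of 8.48 to 13.6, and over NAc shell arrays of 8.02 to 13.6. All 33 lay above the 40th percentile of mean values, the filter that left 18625 probe sets for testing in each region. All 7 measured markers of CeA neurons lay above the filter in the CeA and all 6 of striatal medium spiny neurons in the NAc shell, but 6 of these 7 and all 6 of these 6 also did so in the other region; Crh, a stress peptide of CeA neurons, was above the filter in the CeA alone. The cortical glutamatergic markers Slc17a7, Neurod6 and Tbr1 had regional means under the filter. On 4 single arrays their mean exceeded the filter limit (6.962 in the CeA, 7.09 in the NAc shell): CeA ethanol 6 h number 10 (8.013), CeA water 24 h number 14 (7.278), NAc shell ethanol 1 h number 32 (7.304) and NAc shell ethanol 6 h number 44 (9.004), where the water arrays of that hour reached 5.827. Judged by how well each array correlated with the rest of its region (median), 4 CeA arrays (ethanol 1 h number 27, ethanol 6 h number 30, water 6 h numbers 16 and 17) and 5 NAc shell arrays stood low. The 5 NAc shell arrays were all from ethanol rats, and the mean deviation of the 33 genes on them was 0.0644 to 0.295 log2, above the regional mean on each. The main counts, and several of the named values, are also given without these arrays.

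No proteasome gene passed an adjusted p of 0.05 (limma, Benjamini-Hochberg over all probe sets tested) for ethanol against water in either region, at any hour or over the mean of the 3 hours. Of all probe sets tested, 0% passed in these comparisons too. The counts of genes reading higher differed between the regions. In the direct test of the regional difference, given below, no gene passed an adjusted p of 0.05. The genes also varied together from array to array, so these are not counts of independent genes. In the NAc shell 30 of the 33 genes read higher in ethanol rats over the 3 hours, with a median difference of 0.09 log2 beside 0.01 for all probe sets, of which 53.4% read higher. In the CeA 13 of 33 read higher, with a median of -0.02 beside 0.00 for all probe sets.

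**Figure D1:**
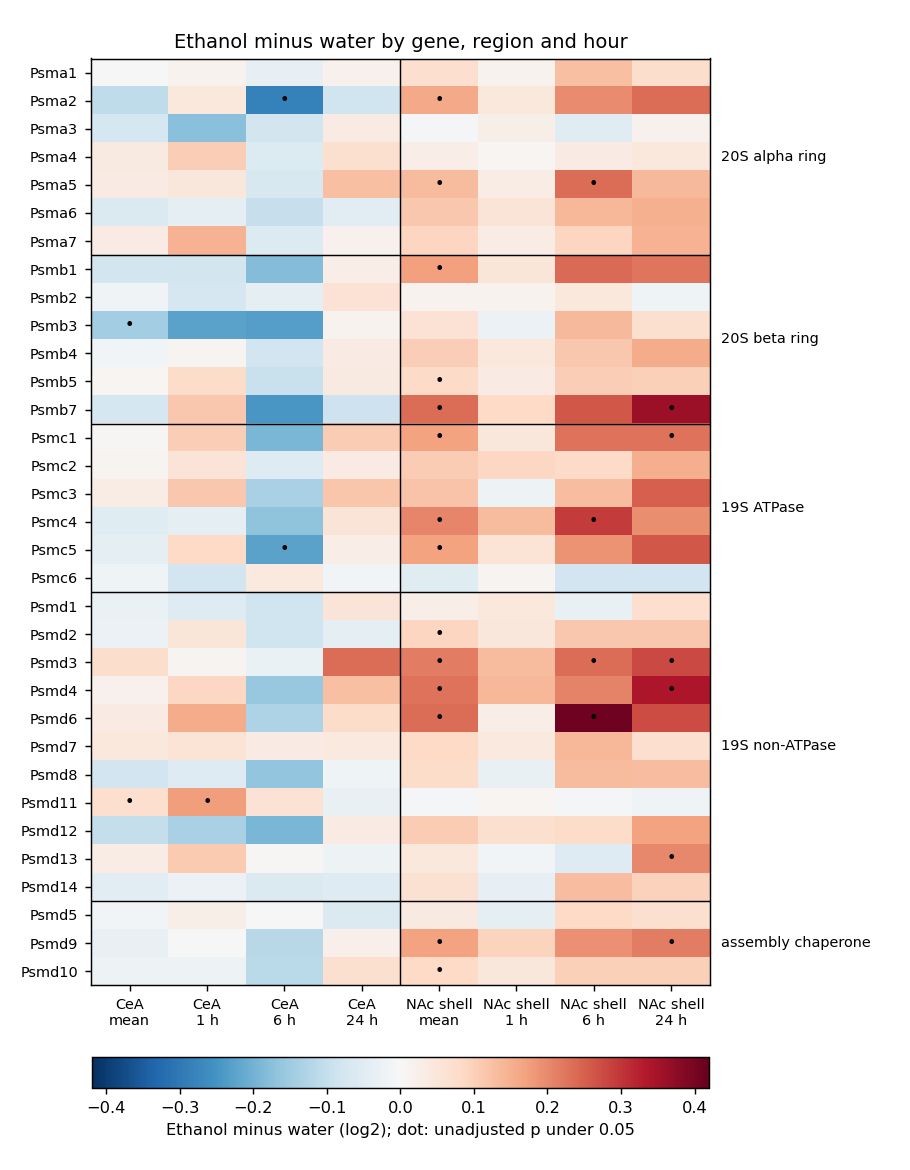
Ethanol minus water on the log2 scale for the 33 genes, ordered by their place in the complex, over the mean of the 3 hours and at each hour in the CeA (left 4 columns) and the NAc shell (right 4 columns). Red is higher in ethanol rats, blue is lower, and a dot marks an unadjusted p under 0.05; no gene passed after adjustment. In the NAc shell 30 of 33 genes are red for the mean, and in the CeA 28 of 33 are blue at 6 h.

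Over the 3 hours in the NAc shell, 14 of the 33 genes had an unadjusted p under 0.05, each of them higher in ethanol rats. Of all 18625 probe sets 11.1% had such a p, and 6.75% had it and were higher. Without the 5 low-correlation arrays the count was 8 of 33, beside 8.06% of all probe sets, and 30 genes read higher, with a median of 0.08. Without the 2 NAc shell arrays high in cortical markers it was 14 of 33, beside 10.2%, and 31 genes read higher. Those 8 were Psmb5, Psmb7, Psmc1, Psmc4, Psmd3, Psmd4, Psmd6 and Psmd9. The smallest adjusted p of a member was 0.236.

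The 4 genes with the smallest p were Psmd3, Psmb7, Psmc4 and Psmd9. Psmd3 encodes a non-ATPase subunit of the lid of the cap. Of its 5 water arrays at 6 h, 4 read 10.04, 10.05, 10.08 and 10.18, and the other lay below these and above the lowest ethanol array. At 24 h the water arrays read 9.84, 9.995, 10.01, 10.08 and 10.21, and at 1 h they ran from 9.90 to 10.37 with a median of 10.29. Its ethanol arrays ran from 9.92 to 10.72 with a median of 10.33 at 1 h, from 9.92 to 10.61 with a median of 10.37 at 6 h, and from 9.87 to 10.59 with a median of 10.41 at 24 h. The groups overlapped at every hour, and 7 of 10 ethanol arrays at 6 h and 7 of 11 at 24 h lay above the highest water array. The ethanol difference of Psmd3 over the 3 hours was 0.21 ± 0.06 log2 (SE; 95% interval 0.09 to 0.34), with an adjusted p of 0.236 (limma).

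Psmb7 encodes the beta subunit with trypsin-like activity. In water rats it read 11.65, 11.67, 11.85, 11.94 and 12.13 at 6 h and 11.23, 11.47, 11.92, 11.96 and 12.03 at 24 h. Ethanol arrays ran from 11.69 to 12.49 (median 12.18) at 6 h and from 11.69 to 12.50 (median 12.09) at 24 h. At both hours the ranges overlapped, with 5 of 10 and 6 of 11 ethanol arrays above every water array. At 1 h the medians were 12.16 in ethanol and 12.02 in water rats. The difference over the 3 hours was 0.23 ± 0.07 log2 (adjusted p = 0.245, limma).

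Psmc4, an ATPase of the ring that unfolds substrates, had water values of 10.50, 10.67, 10.80, 10.82 and 10.88 at 6 h, beside ethanol values from 10.69 to 11.30 with a median of 11.06. At 24 h the water values were 10.54, 10.67, 10.70, 10.79 and 11.11, and the ethanol values ran from 10.67 to 11.33 with a median of 10.96. Its medians at 1 h were 10.86 in ethanol and 10.89 in water rats, and the groups overlapped at every hour. Over the 3 hours the difference was 0.21 ± 0.07 log2 (adjusted p = 0.260, limma). The other Psmc4 probe set lay under the filter.

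Psmd9 encodes a chaperone that helps to assemble the ATPase ring and leaves before the cap is complete. Water values were 7.59, 7.88, 7.90, 7.98 and 8.03 at 6 h and 7.67, 7.84, 7.89, 7.90 and 8.05 at 24 h, and ethanol medians were 8.10 and 8.15. Ethanol ranges of 7.71 to 8.32 and 7.74 to 8.31 overlapped them. The difference over the 3 hours was 0.17 ± 0.06 log2 (adjusted p = 0.280, limma). The probe sets of Psmd9 disagreed, since the second one read -0.03 ± 0.03.

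**Figure D2:**
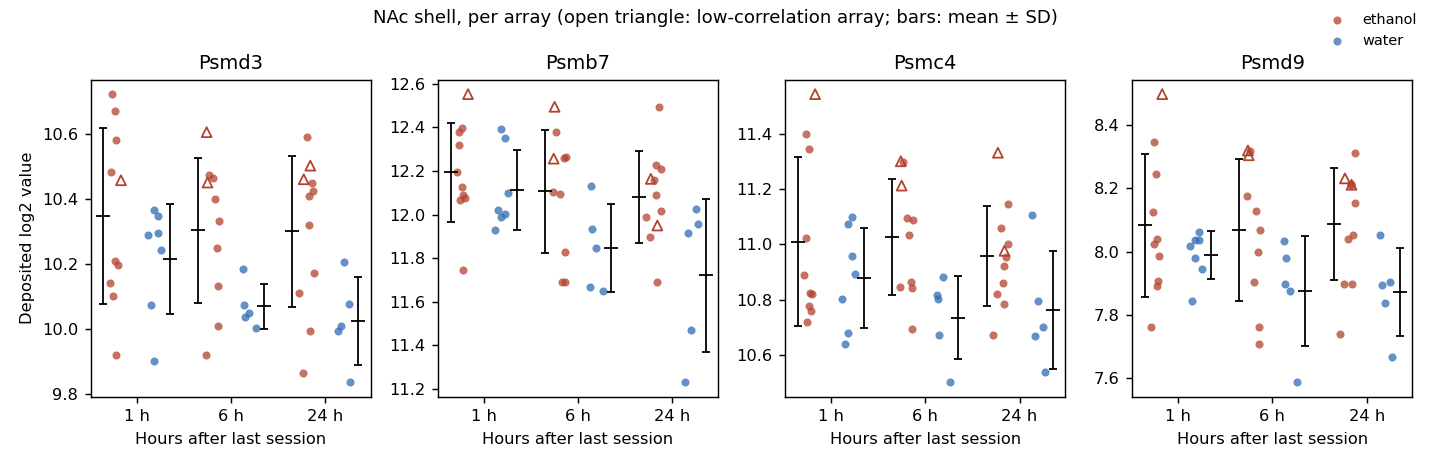
Deposited log2 value of Psmd3, Psmb7, Psmc4 and Psmd9 on each NAc shell array, by hours after the last session, with ethanol arrays in red and water arrays in blue; the black bars are the mean ± SD of each group and open triangles are the 5 low-correlation arrays. Ethanol and water arrays overlap at every hour, and the ethanol mean lies above the water mean in each panel and hour.

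By place in the complex, the alpha ring had 6 of 7 genes higher in ethanol rats over the 3 hours in the NAc shell (median 0.09 log2), with Psma2 (0.16 ± 0.07) and Psma5 (0.13 ± 0.05) under an unadjusted p of 0.05. The beta ring had 6 of 6 higher (median 0.09), with Psmb1, Psmb5 and Psmb7 under that p. Psmb5, the chymotrypsin-like subunit and the main target of proteasome inhibitor drugs, read 13.19, 13.19, 13.20, 13.24 and 13.31 in water rats at 6 h and 13.14, 13.15, 13.22, 13.25 and 13.28 at 24 h. Its ethanol arrays ran from 13.20 to 13.53 (median 13.30) and from 13.14 to 13.40 (median 13.33) at these hours, and overlapped with them. The difference was 0.08 ± 0.03 log2, or 5.67% (adjusted p = 0.320, limma), and the second probe set of Psmb5 read -0.01. Among the ATPases 5 of 6 were higher (median 0.14), with Psmc1 (0.17 ± 0.06), Psmc4 and Psmc5 (0.17 ± 0.08) under the unadjusted p, and Psmc6 read -0.05 ± 0.06.

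Of the 11 non-ATPase subunits 10 were higher in the NAc shell (median 0.08 log2). Psmd4, a ubiquitin receptor of the cap, was higher by 0.23 ± 0.08 (adjusted p = 0.282, limma). Its water arrays read 10.43, 10.48, 10.50, 10.56 and 10.57 at 6 h and 10.15, 10.23, 10.25, 10.41 and 10.59 at 24 h. In ethanol rats it ran from 10.30 to 11.13 and from 10.30 to 10.97, with medians of 10.85 and 10.64, so that at 6 h ethanol arrays lay on both sides of the narrow water range. Psmd2, a large scaffold subunit that receives substrates, read 0.09 ± 0.04, and Psmd14, the deubiquitinase of the lid, read 0.06 ± 0.05. Psmd11, a subunit that clamps cap and core together, was the one below 0, at -0.01 ± 0.04. The chaperones Psmd10 and Psmd5 read 0.08 ± 0.04 and 0.04 ± 0.04, with Psmd10 and Psmd9 under the unadjusted p.

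By the hour, at 1 h in the NAc shell 27 of 33 genes read higher with a median of 0.04 log2, and 0 had an unadjusted p under 0.05 (1.88% of all probe sets); the smallest p values were those of Psmd3 (0.13 ± 0.10) and Psmc4 (0.13 ± 0.11). At 6 h 28 genes read higher with a median of 0.13, and 4 had such a p, all of them higher: Psmd6, Psma5, Psmc4 and Psmd3. The background was 5.23% of all probe sets, and 2.53% when counted as higher only. At 24 h 30 genes read higher with a median of 0.15, and 6 had such a p, beside 3.74% of all probe sets and 2.33% counted as higher only. These were Psmb7 (0.36 ± 0.13), Psmd3 (0.28 ± 0.11), Psmd4 (0.34 ± 0.14), Psmd13 (0.20 ± 0.09), Psmd9 (0.22 ± 0.10) and Psmc1 (0.23 ± 0.11). Without the 5 low-correlation arrays 22, 28 and 28 genes read higher at 1, 6 and 24 h, with medians of 0.01, 0.12 and 0.10. Then 0, 3 and 6 genes had that p, beside 2.78%, 3.77% and 4.72% of all probe sets. At 24 h Psmd9 and Psmd13 were no longer among them, and Psmb5 and Psmc3 were. At 1 h Psmc4 read 0.07 and at 24 h Psmb7 read 0.37 without these arrays, and Psmb7 read 0.24 without water array 31.

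Psmd6, a lid subunit, had the largest difference of any member at a single hour in either region, 0.41 ± 0.16 log2 at 6 h (95% interval 0.09 to 0.72, adjusted p = 0.899, limma). Its water arrays read 11.70, 11.72, 11.82, 11.91 and 12.02, and its ethanol arrays ran from 11.81 to 12.58 with a median of 12.38. In these groups 6 of 10 ethanol arrays lay above every water array and the other 4 within the water range. At 1 h its medians were 12.12 in ethanol and 11.95 in water rats, with ranges of 11.93 to 12.75 and 11.72 to 12.71. Without the low-correlation arrays the 6 h difference was 0.32 ± 0.15.

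A change of the ethanol difference with the hour was tested directly. In the NAc shell 0 of 33 genes had an unadjusted p under 0.05 for the interaction (0.864% of all probe sets), with a smallest adjusted p of 1.00, so the differences at 6 and 24 h were not shown to differ from that at 1 h. Hours were also compared within each treatment, with 1 p per gene for any difference among the 3 hours. In NAc shell water rats 29 of the 33 genes read lower at 6 h than at 1 h, with a median of -0.11 log2, and by the joint test of the 3 hours 4 genes had an unadjusted p under 0.05 (3.64% of all probe sets): Psmd8, Psmb7, Psmc3 and Psmc1. Psmd8, a lid subunit, ran from 9.72 to 10.03 (median 9.84) at 1 h and read 9.49, 9.51, 9.61, 9.64 and 9.73 at 6 h and 9.39, 9.50, 9.59, 9.64 and 9.71 at 24 h. The 24 h values lay wholly below those at 1 h, and the 6 h values overlapped by 1 array. Psmd8 differed by -0.27 ± 0.09 at 6 h and -0.31 ± 0.09 at 24 h (adjusted p = 1.00, limma), Psmb7 by -0.27 ± 0.14 and -0.39 ± 0.14, and Psmc3, an ATPase, by -0.28 ± 0.14 and -0.35 ± 0.14.

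In NAc shell ethanol rats the hours lay closer together, with a median of -0.01 log2 for 6 h against 1 h. There 1 gene, Psmd14, had an unadjusted p under 0.05 by the joint test, beside 3.92% of all probe sets. Psmd14 differed by 0.13 ± 0.07 at 6 h and 0.19 ± 0.07 at 24 h, Psmd8 by -0.11 ± 0.07 and -0.15 ± 0.07, and Psma3 by 0.00 ± 0.08 and 0.14 ± 0.07. No member passed after adjustment, while 0.0376% of all probe sets did. The mean deviation of the 33 genes from their regional mean was 0.00 ± 0.13 log2 (SD, n = 7) at 1 h, -0.11 ± 0.07 (n = 5) at 6 h and -0.11 ± 0.08 (n = 5) at 24 h in water rats. In ethanol rats it was 0.04 ± 0.16 (n = 10), 0.02 ± 0.13 (n = 10) and 0.04 ± 0.13 (n = 11). All 5 water arrays at 6 h and 4 of 5 at 24 h lay below the regional mean.

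**Figure D3:**
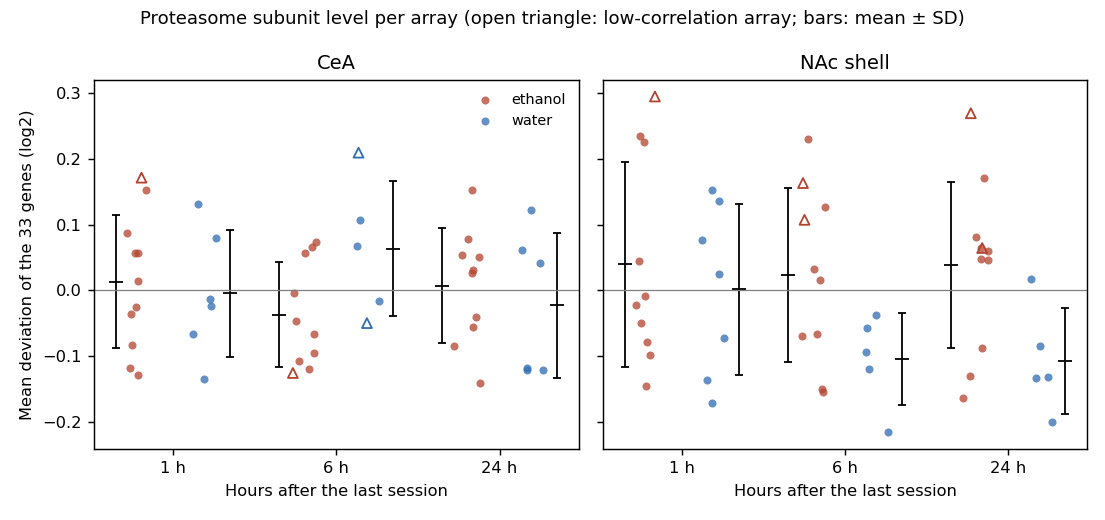
Mean deviation of the 33 proteasome genes from their mean over the region's 48 arrays (log2), for each array, by hours after the last session; ethanol arrays are red, water arrays blue, black bars are mean ± SD, and open triangles are low-correlation arrays. Of the NAc shell arrays, the 5 water arrays at 6 h lie below 0, and the 5 low-correlation arrays are ethanol arrays above 0; in the CeA both treatments spread around 0 at each hour.

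Some other measures also differed between these NAc shell groups, and their association with the proteasome values was not tested. Gapdh is probed at both ends of its transcript, and the 3′ value minus the 5′ value is often read as a measure of RNA integrity that grows as RNA is broken down. With 2 amplification cycles from 25 ng of RNA, this value does not separate RNA breakdown from amplification. It was 1.62 ± 0.08, 2.00 ± 0.19 and 2.01 ± 0.29 (SD) in water rats at 1, 6 and 24 h and 1.73 ± 0.24, 1.81 ± 0.26 and 1.83 ± 0.26 in ethanol rats. With this difference as a covariate the median of the 33 genes over the 3 hours was 0.09 log2 and the count under the unadjusted p 14. The share of all probe sets was not taken under this setting, so that count has no background. The part of RNA integrity in the proteasome result was not tested. Among cell type markers in the NAc shell, 6 of 6 tested neuronal genes, 7 of 7 astrocyte genes and 5 of 5 microglial genes read higher in ethanol rats over the 3 hours, and 3 of 6 oligodendrocyte genes did. Of all probe sets 53.4% read higher. Striatal medium spiny neuron genes read higher in 3 of 6 cases (median 0.00) and vessel genes in 2 of 6, so these lists were split. Mean levels over the 7 neuronal markers ran from 11.6 to 12.3 log2 in ethanol and from 11.6 to 11.9 in water rats at 6 h, and those over the 7 microglial markers from 7.76 to 8.23 and from 7.67 to 8.14. The part of these markers in the proteasome result was not tested.

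In the CeA 2 of the 33 genes had an unadjusted p under 0.05 over the 3 hours, beside 8.16% of all probe sets. These were Psmb3, a non-catalytic beta subunit, at -0.15 ± 0.07 log2 (adjusted p = 0.598, limma), and Psmd11 at 0.07 ± 0.03 (adjusted p = 0.613). Psmb3 ran from 10.82 to 11.22 (median 11.02) in water and from 10.42 to 11.08 (median 10.79) in ethanol rats at 1 h, and at 6 h its water arrays read 10.51, 10.83, 11.14, 11.14 and 11.25 beside an ethanol range of 10.56 to 11.03 (median 10.72). At 24 h the medians were 10.95 in ethanol and 10.97 in water rats. The groups overlapped at each hour. Psmd12, another lid subunit, read -0.10 ± 0.06, or -0.06 without the low-correlation arrays, and Psma2 -0.11 ± 0.07, or -0.07 without water array 16. The catalytic genes Psmb5 and Psmb7 read 0.01 ± 0.03 and -0.07 ± 0.09, Psmd2 and Psmd4 read -0.02 ± 0.03 and 0.02 ± 0.07, and Psmd14 read -0.05 ± 0.04. The chaperones Psmd5, Psmd9 and Psmd10 read -0.01 ± 0.04, -0.03 ± 0.05 and -0.02 ± 0.04.

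Title numbers of the CeA arrays fall into 4 runs within which the order of hours restarts. After each group's mean was subtracted, correlations across treatments averaged 0.209 inside a run, against -0.08 for pairs from different runs. With the runs as a block in the fit, 0.258% of all probe sets passed an adjusted p of 0.05 over the 3 hours and 17% had an unadjusted p under 0.05. Of the proteasome genes 0 passed (smallest adjusted p 0.193), 3 had such a p and 14 read higher, with a median of -0.01 log2. Within runs 1 to 4 the median difference of the 33 genes, hours pooled, was 0.09, -0.07, 0.01 and -0.09 log2. In these runs 27, 7, 17 and 6 genes read higher. The runs held 5, 10, 10 and 6 ethanol and 3, 6, 6 and 2 water arrays. Hours were not balanced between treatments within them. Both water arrays of run 4 were the low-correlation 6 h arrays, numbers 16 and 17. The medians thus mix run with hour, and whether the runs differ in direction was not tested.

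In the CeA at 1 h 20 of 33 genes read higher (median 0.02 log2) and 1, Psmd11, had an unadjusted p under 0.05, beside 5.43% of all probe sets. Psmd11 ran from 11.92 to 12.14 (median 12.11) in water and from 12.06 to 12.47 (median 12.25) in ethanol rats, with 8 of 11 ethanol arrays above every water array, and differed by 0.18 ± 0.06 (adjusted p = 0.886, limma). Its second probe set differed by 0.03 ± 0.05 over the 3 hours. Psma4, an alpha subunit, differed by 0.10 ± 0.05 at 1 h. At 24 h 23 genes read higher (median 0.03) and 0 had such a p (0.655% of all probe sets); Psma5 read 0.13 ± 0.07 and Psmd3 0.23 ± 0.17.

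At 6 h in the CeA 28 of the 33 genes read lower in ethanol rats, with a median of -0.08 log2 beside -0.02 for all probe sets, of which 46.1% read higher. An unadjusted p under 0.05 was found for 2 genes, both lower, beside 8.22% of all probe sets and 4.68% counted as lower only, so the share of members with such a p was near the background. Psma2, an alpha subunit, read 10.71, 10.87, 10.89, 10.95 and 11.46 in water rats and in ethanol rats it had a lowest value of 10.42, a median of 10.67 and a highest value between the upper water arrays, at 10.95 and 11.46. Of 10 ethanol arrays 6 lay below every water array. Its difference was -0.29 ± 0.12 (adjusted p = 0.571, limma), but -0.15 ± 0.14 without the low-correlation arrays and -0.16 without water array 16 alone. Psmc5, an ATPase, read 11.89, 12.08, 12.24, 12.28 and 12.62 in water and 11.83 to 12.26 (median 11.95) in ethanol rats, and differed by -0.23 ± 0.11 (adjusted p = 0.571, limma). Without the low-correlation arrays Psmc5 differed by -0.08 ± 0.12, and without water array 16 alone by -0.12. All 7 alpha and all 6 beta genes read lower at this hour, with 5 of 6 ATPases, 8 of 11 non-ATPase subunits and 2 of 3 chaperones.

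These 6 h values rest on 5 water arrays, 2 of which (numbers 16 and 17) and 1 ethanol array stood low in correlation. On the 2 water arrays the mean deviation of the 33 genes was 0.21 and -0.05 log2. Without the low-correlation arrays 28 genes read lower (median -0.07), not all of them the same, since the alpha gene Psma7 then read 0.09 and the cap gene Psmd1 0.03 while Psmd7 read -0.09, and 1, Psmb3 (-0.31 ± 0.15), had an unadjusted p under 0.05, beside 2.59% of all probe sets. Without ethanol array 10, high in cortical markers, 28 read lower and 1, Psma2, had such a p, beside 6.19%. Marker genes moved at this hour too. Microglial genes read lower in ethanol rats in 6 of 6 cases (mean level 7.78 to 8.58 in ethanol and 8.04 to 8.85 in water rats) and oligodendrocyte genes in 6 of 6 (12.3 to 13.7 and 12.4 to 13.7), as did vessel genes in 6 of 6 (8.90 to 9.77 and 9.20 to 9.76). General neuronal genes read lower in 5 of 7 (11.76 to 12.03 and 11.87 to 12.09), and astrocyte genes in 5 of 7 (11.88 to 12.37 and 11.99 to 12.31). CeA neuron genes read higher in 6 of 7 (10.4 to 11.9 and 10.2 to 11.2). Striatal medium spiny neuron genes also read higher, in 5 of 6 (9.41 to 10.89 and 8.76 to 10.96), so the higher reading was not particular to CeA neuron genes. The part of these markers in the proteasome values was not tested.

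The interaction of ethanol with the hour was not significant for any CeA member after adjustment (smallest adjusted p 0.979, limma). Before adjustment 1 gene, Psmd11, had a p under 0.05, beside 1.34% of all probe sets. In CeA water rats 28 of 33 genes read higher at 6 h than at 1 h (median 0.06 log2). By the joint test of the 3 hours 2 genes had an unadjusted p under 0.05, beside 3.32% of all probe sets. These were Psmb5 and Psmc1, an ATPase, whose differences of 6 h from 1 h were 0.15 ± 0.06 and 0.23 ± 0.12, and Psmc5 read 0.25 ± 0.12. At 24 h against 1 h the same genes read 0.01 ± 0.06, -0.09 ± 0.11 and -0.02 ± 0.11. In CeA ethanol rats 31 genes read lower at 6 h than at 1 h (median -0.05), and 0 had such a p by the joint test, beside 3.51% of all probe sets. There 0.0591% of all probe sets passed after adjustment and no member did. The smallest p values were those of Psma7 (-0.08 ± 0.08 at 6 h and -0.17 ± 0.08 at 24 h), Psma3 (-0.02 ± 0.09 and 0.15 ± 0.09) and Psma4 (-0.09 ± 0.05 and -0.02 ± 0.05).

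The difference between the regions was tested in 1 fit of all 96 arrays, as the ethanol difference in the CeA minus that in the NAc shell, over 17572 probe sets. Over the 3 hours 30 of 33 genes had a lower value in the CeA, with a median of -0.11 log2 beside -0.01 for all probe sets. An unadjusted p under 0.05 was found for 10, all lower, beside 9.39% of all probe sets and 5.08% counted as lower only, and 0 passed after adjustment. Psmb1, a non-catalytic beta subunit, had the smallest p: the CeA difference was -0.08 and the NAc shell difference 0.17, which lay -0.25 ± 0.09 apart (adjusted p = 0.432, limma). For Psmc4 the regions differed by -0.26 ± 0.09, for Psma2 by -0.27 ± 0.10 and for Psmb7 by -0.31 ± 0.11, with adjusted p of 0.432, 0.440 and 0.440. Without the low-correlation arrays of both regions 28 genes had a lower value in the CeA (median -0.08), and 5 had an unadjusted p under 0.05, beside 5.68% of all probe sets. Psmb1, Psmc4, Psma2 and Psmb7 then differed by -0.20, -0.22, -0.19 and -0.28.

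At 6 h 12 of the 33 genes had an unadjusted p under 0.05 for the difference between regions, all lower in the CeA, beside 11.1% of all probe sets and 6.36% counted as lower only. The median was -0.21 log2, and Psmd6 had the smallest p, with a difference of -0.54 ± 0.18 (adjusted p = 0.410, limma). Without the low-correlation arrays 7 genes had such a p, beside 5.27%, the median was -0.17 and Psmd6 differed by -0.47. At 1 h 0 genes had such a p (2.23% of all probe sets; median 0.00), and at 24 h 1 gene, Psmb7, did, at -0.45 ± 0.20 (1.02%; median -0.13). The labels do not tie arrays of the regions to the same rats, and this fit took them as independent.

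**Figure D4:**
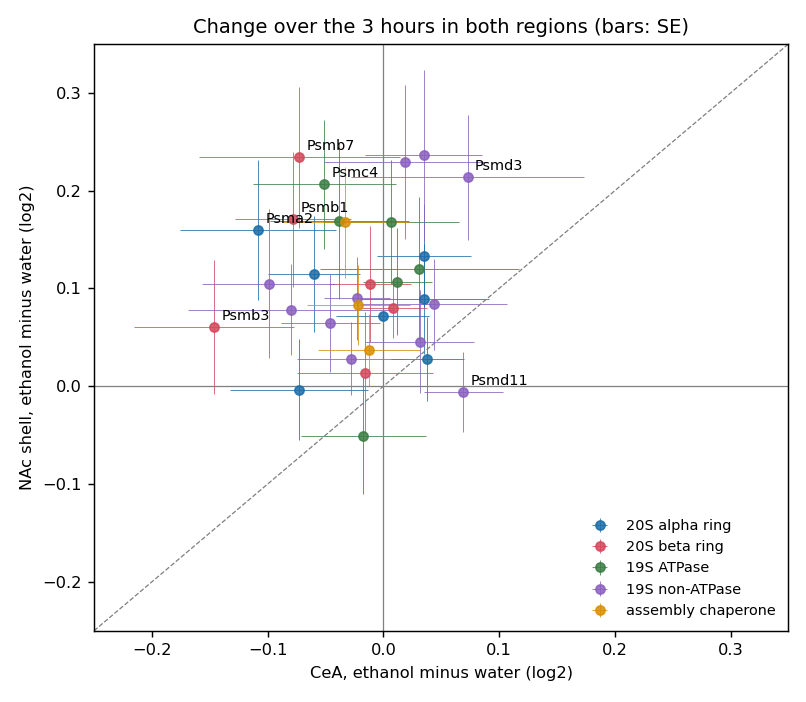
Ethanol minus water over the mean of the 3 hours in the CeA (horizontal) and in the NAc shell (vertical), on the log2 scale, with 1 point per proteasome gene, coloured by its place in the complex, and bars of ± 1 SE; on the dashed line both differences are equal. Of the 33 points 30 lie above 0 on the vertical axis and 30 above the dashed line, while 13 lie right of 0.

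The members varied together from array to array. Once group means were removed, the mean Pearson correlation over the 528 pairs of members was 0.422 in the NAc shell and 0.233 in the CeA (n = 48 arrays each), beside 0.0268 and 0.0227 over all probe sets tested. Spearman values were 0.423 and 0.225, and without the 2 arrays farthest from the median of the members' mean the Pearson values were 0.396 and 0.208. All pairs share the same arrays, so depth of hybridisation, tissue and RNA quality enter each of them. Counts of members on 1 side of 0 are therefore not counts of independent genes.

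Other genes of the pathway were taken from lists written with earlier results of these data known, and none passed an adjusted p of 0.05 in either region over the 3 hours. Of all probe sets in the NAc shell, 11.1% had an unadjusted p under 0.05 over the 3 hours and 53.4% read higher. In the NAc shell all 5 measured assembly factors of the core read higher in ethanol rats (median 0.08 log2), with Pomp, the proteasome maturation protein, at 0.13 ± 0.06, and 0 had an unadjusted p under 0.05. Of the activators and the inhibitor 3 of 4 read higher and 0 had such a p. Psmb10, the one immunoproteasome gene above the filter there, read 0.19 ± 0.05 (adjusted p = 0.217, limma). Among 11 receptors, shuttles and deubiquitinases 8 read higher and 2 had such a p, Usp14, a deubiquitinase bound to the cap, at 0.08 ± 0.03 and the shuttle Ubqln4 at 0.15 ± 0.06. Uba1, the main ubiquitin-activating enzyme, read 0.13 ± 0.05. The regulators Nfe2l1 and Nfe2l2 read 0.00 ± 0.07 and -0.01 ± 0.05.

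In the CeA all 5 assembly factors read lower (median -0.03 log2) and 1, Pomp, had an unadjusted p under 0.05, at -0.12 ± 0.04 (adjusted p = 0.470, limma). Of all probe sets in the CeA, 8.16% had an unadjusted p under 0.05 over the 3 hours and 49.3% read higher. Receptors, shuttles and deubiquitinases were split, with 6 of 10 higher. There Uchl5, a deubiquitinase of the cap, read -0.18 ± 0.07 and Ecpas, an adaptor of the complex, 0.12 ± 0.05, and both had such a p. Nfe2l1 and Nfe2l2 read 0.07 ± 0.07 and -0.06 ± 0.08, and neither had such a p.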

How the data were processed

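Expression was measured on 96 Affymetrix arrays, 48 for each region. The deposited values are log2 expression after RMA, per the submitters' processing notes, which summarises the probes of a probe set after background correction and quantile normalization; its version is not given in the sources used here. Probe sets were named from the platform annotation, updated through Entrez identifiers, and 20826 of 31099 carried 1 gene symbol. Members were symbols of Psma, Psmb, Psmc or Psmd plus digits, each read from its brightest probe set. The members and the other gene lists were chosen with earlier results of these data known.

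Probe sets whose mean lay above the 40th percentile of their region were fitted in limma 3.58.1 (R 4.3.3) with 1 mean for each of 6 groups. Contrasts were ethanol minus water at each hour and over the mean of the 3 hours, the interaction with hour, and hours within a treatment. The regional difference used 1 fit of both regions. P-values were adjusted by Benjamini-Hochberg over all probe sets tested. The fits were tested on simulated data with independent noise for each probe set and array. That test does not bear on counts of genes that vary together or on differences between runs.

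Genes named with values were, for each contrast, the 2 to 4 members with the smallest p, and the catalytic, ubiquitin-binding, deubiquitinating and chaperone members whatever their values. Other genes under an unadjusted p of 0.05 were named, and Psmd6 and Psmd8 described in full, after their values were seen. The alternatives were the filter, repeated quantile normalization, array weights, a Gapdh covariate, a looser threshold, low-correlation arrays left out, arrays high in cortical markers left out (added after seeing the data), each array left out in turn, and blocks for title runs and for title numbers. Same-number ethanol and water CeA arrays can differ in hour, as number 2 does (1 h and 6 h), and in run, as number 4 does (runs 1 and 2). The numbers were therefore not taken to pair the samples. Once group means were removed, 8 of 17 same-number pairs correlated above 0.1 (range -0.781 to 0.748). Such correlations also carry the run, so they cannot decide on pairing. The number of arrays limits the precision.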

Additional observations from a re-analysis of the deposited data

Results flagged for a closer look

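In 14 of 250 sets, 1 array stood far from the others by Dixon's test, and chance flags about 1 in 20 groups. The sets were the groups of the 24 named genes and of the mean over all 33 genes. Groups of 11 arrays were not checked, and all flags fell on named genes. In CeA water rats at 1 h the lowest array read 10.3 for Psma2 (nearest 10.76), 12.48 for Psmd14 (nearest 12.85) and 10.22 for Psmd5 (nearest 10.6), and the highest read 11.83 for Psma5 (nearest 11.66). In NAc shell ethanol rats at 6 h the highest array read 11.94 for Psma2 (nearest 11.48), 12.35 for Psmb1 (nearest 11.96), 12.54 for Psmd11 (nearest 12.22) and 12.6 for Psmd14 (nearest 12.33). In NAc shell water rats at 6 h the lowest array read 10.42 for Psma3 (nearest 10.62) and 12.14 for Psmd11 (nearest 12.18). At 24 h in NAc shell water rats the highest array read 10.92 for Psma3 (nearest 10.62), 12.44 for Psmd14 (nearest 12.18) and 10.73 for Psmd5 (nearest 10.62), and the lowest read 12.03 for Psmd11 (nearest 12.23).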

How the results depend on the processing

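No member passed an adjusted p of 0.05 in either region under any alternative run. Over the 3 hours, the count of CeA genes at an unadjusted p under 0.05, a count chosen after its values were seen, was 2 and became 1 with no filter, with a filter at the 60th percentile, with repeated quantile normalization, with array weights and without the low-correlation arrays. At 6 h the CeA count of 2 was 8 with array weights and 1 without the low-correlation arrays. Without the low-correlation arrays 7.03% of all CeA probe sets had such a p over the 3 hours and 2.59% at 6 h. The NAc shell count of 4 at 6 h was 7 with repeated quantile normalization. That of 14 over the 3 hours was 8 without the low-correlation arrays, beside 8.06% of all probe sets. Without the arrays high in cortical markers, an alternative chosen after seeing the data, the CeA counts were 4 over the 3 hours and 1 at 6 h. Of all probe sets 12% and 6.19% then had such a p, so the count of 4 was near the background. With the run block, 3 CeA genes rather than 5 read higher at 6 h. The cause of these shifts was not tested. Leaving out 1 array at a time, these counts ran from 0 to 3 for the CeA over the 3 hours, from 0 to 6 for the CeA at 6 h (0 without water array 16) and from 1 to 9 for the NAc shell at 6 h (1 without water array 27), and 3 to 6 CeA genes read higher at 6 h. With the title number as a replicate block, 0 CeA members passed and the median over the 3 hours was -0.01. For the filters, repeated quantile normalization, array weights, the Gapdh covariate and single arrays left out, the share of all probe sets was not taken. Counts under those settings therefore have no background beside them.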
